A study of Homo sapiens with 14 samples.

Results

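Splicing of the mRNAs that encode the SF3A and SF3B complexes was compared between HEK293T cells with and without a mutation in SF3B1, the largest subunit of SF3B. The 10 genes were SF3B1, SF3B2, SF3B3, SF3B4, SF3B5, SF3B6, PHF5A, SF3A1, SF3A2 and SF3A3. All splice events listed under these gene symbols with a mean of at least 10 junction reads were taken, which gave 97 of the 94061 events with that many reads in the whole table. They lay in 8 of the 10 genes, since no event was listed for SF3B4 or SF3B5. SF3B3 had 44 events, SF3B2 18, SF3A3 16, SF3B1 8, SF3A2 7, SF3B6 2, and SF3A1 and PHF5A 1 each.

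SF3A and SF3B are the protein complexes that, with the U2 small nuclear RNA and its core proteins, make up the U2 snRNP. The U2 snRNP pairs with the branch point of an intron early in spliceosome assembly, and SF3B1 holds the branch point adenosine together with PHF5A. Mutations in the HEAT repeats of SF3B1, of which K700E is the most common, are known to alter the choice of branch point and with it the use of cryptic 3′ splice sites.

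RNA-Seq had been performed on total RNA of HEK293T, an epithelial line from human embryonic kidney. The 3 WT libraries carried SF3B1 K700K and the 3 MT libraries SF3B1 K700E, which the study introduced at the endogenous locus of an isogenic line, with no further treatment of either group. Neither the labels nor Methods state whether the 3 libraries of a genotype came from separate cultures or clones, so the tests measure only the spread between these libraries, which may be technical. The table holds junction reads of splice events and no base calls, and the K700E codon itself could not be checked. Junction reads summed over all events ranged from 9516994 to 12620910 per library. The inclusion level of an event is the share of the longer form, or of the form with the named exon, among both forms, corrected for the number of positions at which a read can support each, and runs from 0 to 1.

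Sites at which these mRNAs had a measurable second form are shown first. SF3B2 has 3 exons whose acceptor is doubled, with AG dinucleotides 3 bases apart. They are given because they are the closest thing in these genes to the choice between neighbouring 3′ splice sites. Each is read from GRCh38, plus strand, with both AGs in capitals, and the cut falls after either of them. They lie at chr11:66055511-66055549 (exon 5), chr11:66057242-66057280 (exon 7) and chr11:66067922-66067960 (exon 20).
SF3B2 exon 5: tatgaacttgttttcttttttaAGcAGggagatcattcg
SF3B2 exon 7: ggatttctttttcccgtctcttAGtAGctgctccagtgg
SF3B2 exon 20: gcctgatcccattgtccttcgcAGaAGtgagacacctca

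Of the 17 bases before the upstream AG, 14 were pyrimidines at exon 5, 16 at exon 7 and 13 at exon 20. No other AG stood in the 48, 43 and 46 bases before that AG, respectively. Use of the downstream AG leaves out 3 bases of coding sequence and keeps the reading frame at all 3 exons.

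A pair of short cassette exons, in SF3B1 and SF3B3, lies in introns of the reference (MANE) transcripts. They are shown because each carries a stop codon in the frame of the mRNA, 3377 bases before the last exon junction in SF3B1 and 2129 bases before it in SF3B3. Transcripts of this kind are generally removed by nonsense-mediated decay. The exon is in capitals and the intron bases beside it in lower case. The SF3B1 exon of 56 bases, between exons 4 and 5, is shown within chr2:197418884-197418963 on the minus strand, and the SF3B3 exon of 29 bases, between exons 11 and 12, within chr16:70550638-70550690 on the plus strand (GRCh38).
SF3B1 56-base exon: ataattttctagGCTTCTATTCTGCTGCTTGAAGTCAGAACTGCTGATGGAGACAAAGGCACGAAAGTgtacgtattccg
SF3B3 29-base exon: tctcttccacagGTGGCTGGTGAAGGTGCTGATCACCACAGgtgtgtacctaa

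Inclusion levels of the SF3A and SF3B mRNAs were close to each other in MT and WT cells. Of the 97 events, 87 had levels that varied and entered limma's moderated test, and the remaining 10 had a level of 1 in every library. None of the 87 was called at a Benjamini-Hochberg adjusted p under 0.05 with a difference above 0.1, where the share called among all 83581 events tested was 0.0311%. At an unadjusted p under 0.05, 1 of the 87 passed by limma, against 4.47% of all events. A quasi-binomial test of the recovered junction counts, with dispersions moderated over events, called 0 of 68, with 4 at an unadjusted p under 0.05, where it called 0.0373% and had 6.03% at that p among all events.

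The absolute difference between the MT and the WT mean had a median of 0.00233 over the 87 events and reached 0.06 at most, so none exceeded 0.1. Over all events tested the median was 0.0137 and 5.8% of events exceeded 0.1. The SF3A and SF3B events were also more deeply read, with a median of 611 mean reads against 82.4 over all events, and the part of depth in these medians was not tested. The 95% interval of the difference, from a limma fit to the untransformed level, lay wholly within 0.1 of zero for 80 of the 87 events (92%), and for 62.3% of all events. The exceptions were events with levels far from 0 and 1 or with few reads on one form, and the widest interval reached 0.176 to each side.

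**Figure D1:**
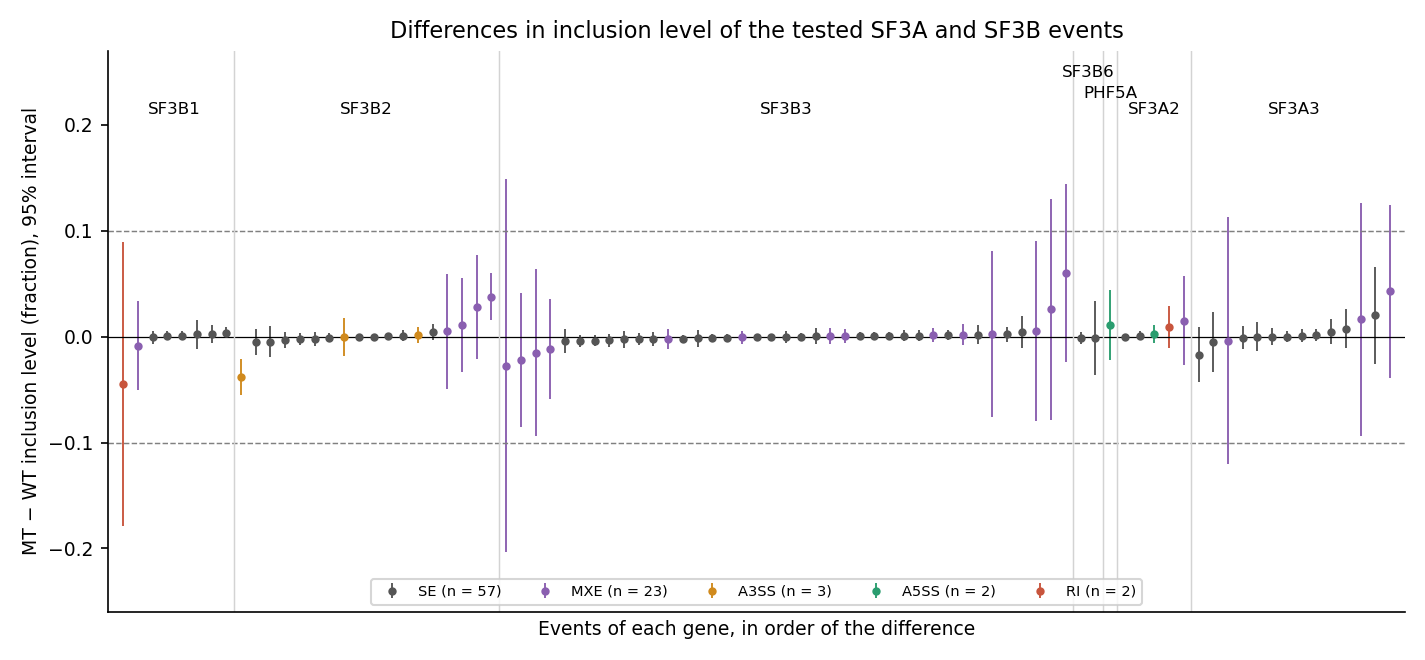
Difference in inclusion level between MT and WT (vertical axis, fraction) for each of the 87 tested events, grouped by gene and ordered within a gene. Points are differences of the means of 3 libraries, bars are 95% intervals from limma on the untransformed level, colours are event types and dashed lines stand at 0.1 on both sides. All points lie between −0.0447 and 0.06, and the wide bars belong mostly to mutually exclusive exon (MXE) events.

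The event types were unequal in what they measured. There were 67 cassette exon events, of which 64 concerned exons of the MANE transcripts (50 distinct segments). Their levels were 0.91 or higher in every library, and at least 0.98 in every library for 59 of them. Reads of the skipping junction summed to 157 in WT and 158 in MT over the 64 events, and the junction belonged to an annotated transcript for 4 of them. Some events can share a skipping junction, so a read can count more than once in these sums. The length of the segment was a multiple of 3 at 28 of the 64 and not at 36. Where a segment differs from the MANE exon or is only partly coding, its length does not give the effect of skipping on the frame. For some of the 64, such as exon 9 of SF3A3, 1 of the 2 inclusion junctions is in no annotated transcript.

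At 10 of the 64 cassette events the skipping junction of that event had no read in any library. Such a zero holds for 1 junction and not for all skipping of the exon. Exon 4 of SF3B3 had none in an event with 1174 mean reads, yet 2 WT skipping reads in an event with other neighbours. At exon 23 of SF3B3, 4451 inclusion reads over the 6 libraries allowed a share of skipping reads of up to 0.0674% (3 reads of the total). At exon 9 of SF3A3, the event of the 10 with the fewest recovered reads, 1400 reads allowed up to 0.214%, for skipping between the neighbours of that event only. These limits cover counting error only. Inclusion counts were not recovered for 3 of the 10.

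The 23 MXE events compared pairs of nearby exons, which were mostly neighbours, though SF3B3 exons 16 and 18 were not. Yet both exons of every pair occur together in at least 1 annotated transcript. Junction reads of exons used together then fall on both sides of the ratio. The exon that the level counts need not be the first one named. In 16 of the events the level lay between 0.245 and 0.716 in all 6 libraries, and in the other 7 it was under 0.1. The spread between libraries was greatest among the 16, with an SD of up to 0.122 within a genotype. These levels show the balance of reads between the junctions of the paired exons and are not shares of a spliced form.

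None of the 8 events of SF3B1 mRNA itself separated the genotypes. Skipping of exon 7, whose loss would shift the frame, was rare. Its inclusion level was 0.997, 0.993 and 0.994 in WT cells and 1.000, 0.998 and 0.997 in MT, so the groups touched at 0.997, and the difference was 0.00367 (95% interval −0.00142 to 0.00875). Skipping reads numbered 6 in WT and 2 in MT. The best covered event, cassette inclusion of exon 2 with 826 mean reads, stood at 1.000, 1.000 and 0.997 in WT and at 1.000 in all MT libraries. Exons 6 and 22 and a shorter form of exon 2 were also included at 0.993 or more in every library.

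The 56-base exon shown above had a low inclusion level in SF3B1 mRNA. Its level was 0.010, 0.009 and 0.017 in WT cells and 0.008, 0.010 and 0.025 in MT. The ranges overlapped, with the highest and the lowest value both in MT (0.012 ± 0.00436 and 0.0143 ± 0.00929, SD, n = 3). The difference of 0.00233 had a 95% interval of −0.0114 to 0.0161. Inclusion reads numbered 29 in WT and 31 in MT over both junctions of the exon, and the junction into it had 9 and 10. The remainder lie on the junction out of the exon, which mRNA that retains the stretch before it would also have. The level is thus no pure measure of splicing of the exon.

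The event with the largest difference in SF3B1 was retention of the 1476-base stretch upstream of that exon, chr2:197418952-197420427. Levels were 0.942, 0.939 and 0.969 in WT cells and 0.980, 0.786 and 0.950 in MT, a difference of −0.0447 (95% interval −0.179 to 0.0897, limma adjusted p = 0.856). A single MT library was low and the other two lay within or above the WT range. Without that library, MT replicate 2, the difference was 0.015. The removed form of this event is the junction into the 56-base exon, and it was carried by 9 reads in WT and 10 in MT, which makes the level near 1 a statement on that rare junction and not on retention in SF3B1 mRNA at large. The MXE event of exons 7 and 6 had levels of 0.470, 0.479 and 0.481 in WT cells and 0.50, 0.469 and 0.435 in MT, with overlapping ranges.

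**Figure D2:**
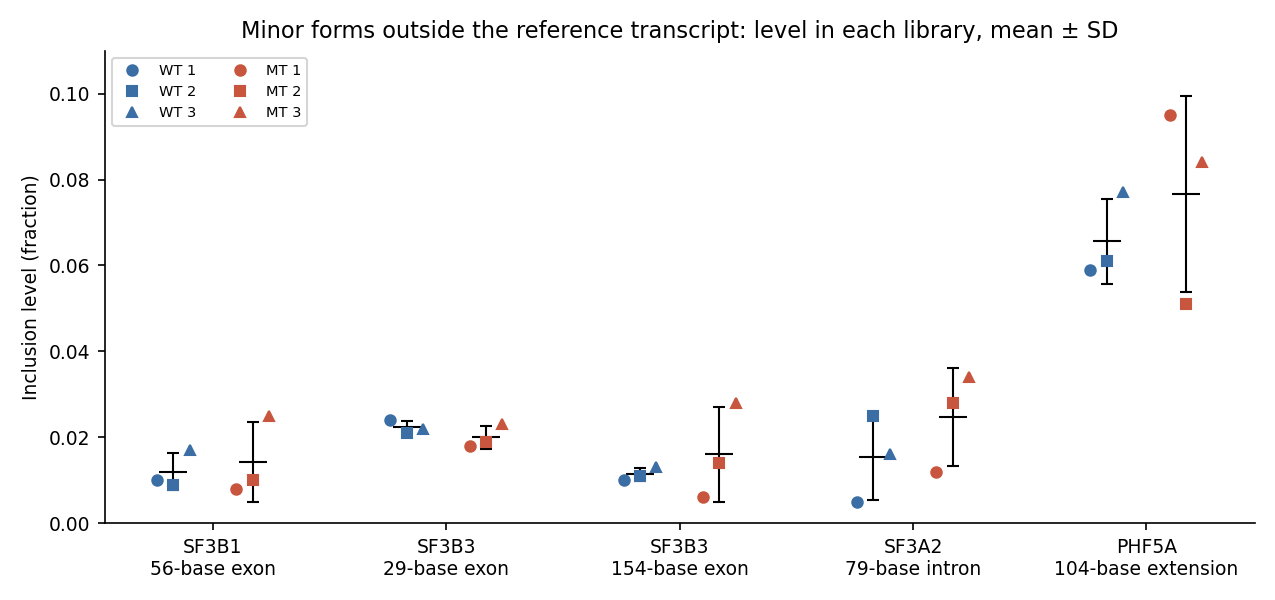
Inclusion level (vertical axis, fraction) of 5 minor forms that lie outside the MANE transcripts, in each WT (blue) and MT (red) library, with the mean and SD of 3 libraries in black. In each of the 5 the WT and MT points overlap, and levels stay under 0.1.

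SF3B3, a β-propeller protein that scaffolds SF3B1 and PHF5A, had the most events. Its 29-base exon was included at 0.024, 0.021 and 0.022 in WT and at 0.018, 0.019 and 0.023 in MT, a difference of −0.00233 (95% interval −0.00797 to 0.0033). MT replicate 3 lay within the WT range and the other MT libraries below it. A cassette exon of 154 bases between exons 1 and 2, chr16:70524864-70525017, outside the coding sequence, was included at 0.010, 0.011 and 0.013 in WT and at 0.006, 0.014 and 0.028 in MT. There the MT libraries lay on both sides of the WT range.

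The other 28 cassette events of SF3B3, over exons 2 to 25, were at 0.98 or higher in every library. Exon 8 had the most skipping reads, 21 in WT and 16 in MT, at levels of 0.981 to 0.987 and 0.980 to 0.991. The event with the lowest p by limma was the MXE pair of exons 3 and 4 of SF3B3, with 1320 mean reads. Its level was 0.457, 0.559 and 0.482 in WT cells and 0.517, 0.564 and 0.597 in MT, a difference of 0.06 (95% interval −0.0243 to 0.144 on the untransformed level, limma unadjusted p = 0.0327 on the transformed level, limma adjusted p = 0.856). The ranges overlapped, since WT replicate 2 was above MT replicate 1, and the difference ran from 0.0388 without WT replicate 1 to 0.0898 without WT replicate 2. Both exons are in the MANE transcript, with the limit for MXE levels given above. The other 7 mid-level MXE events of SF3B3 differed by −0.0273 to 0.0257.

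PHF5A, a small zinc-finger protein that completes the branch point pocket, had 1 event, a choice of donors after exon 2. The distal donor adds 104 bases of intron, which hold an in-frame stop codon 179 bases before the last exon junction. It was used at 0.059, 0.061 and 0.077 in WT cells and 0.095, 0.051 and 0.084 in MT, or 0.0657 ± 0.00987 and 0.0767 ± 0.0229 (SD, n = 3). MT replicate 2 was the lowest of all 6 libraries and MT replicate 1 the highest. The difference was 0.011, with a 95% interval of −0.0218 to 0.0438, and was 0.00183 without MT replicate 1 and 0.0238 without MT replicate 2. The distal form had 65 reads in WT and 71 in MT, against 470 and 437 of the proximal form.

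SF3B6, a further SF3B subunit, had 2 cassette events. Exon 2, of 119 bases, was included at 0.982, 0.955 and 0.982 in WT and at 0.994, 0.949 and 0.972 in MT, a difference of −0.00133 (95% interval −0.0361 to 0.0335). Replicate 2 was the lowest library of each genotype. Leaving exon 2 out would shift the frame. Exon 3 was included at 1.000 in 5 libraries and at 0.996 in MT replicate 2.

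SF3B2, the SF3B subunit that binds SF3B4 and contacts the intron near the branch point, held the sole site of the group at which the WT and MT libraries did not overlap. At exon 5 the upstream AG was used at 0.916, 0.929 and 0.916 in WT and at 0.872, 0.892 and 0.883 in MT. All MT libraries were lower, and the means were 0.920 ± 0.00751 and 0.882 ± 0.01 (SD, n = 3). The difference of −0.038 had an unadjusted 95% interval of −0.055 to −0.021 on the untransformed level. Limma's test of the transformed level gave an unadjusted p of 0.0873, and the quasi-binomial test with limma's moderation 0.0212. The event was not called (limma adjusted p = 0.856, and 0.608 in the quasi-binomial test). An exact permutation test of 3 against 3 libraries cannot go below a two-sided p of 0.1, the value that such non-overlapping groups give.

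The reads behind exon 5 were few. The downstream AG, the junction that leaves out the 3 bases, had 25 of 304 reads in WT replicate 1, 31 of 445 in WT replicate 2 and 18 of 218 in WT replicate 3. In MT it had 27 of 215, 39 of 369 and 43 of 376 reads. Downstream shares were thus 8.22%, 6.97% and 8.26% in WT and 12.6%, 10.6% and 11.4% in MT. Their exact Clopper-Pearson 95% intervals overlapped between the genotypes, from 4.78% to 12.7% over the WT libraries and from 7.62% to 17.7% over the MT libraries.

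A second event read the same junction. The exon 5 form without the 3 bases was set against exon 6 in an MXE event, with levels of 0.040, 0.054 and 0.056 in WT cells and 0.095, 0.071 and 0.097 in MT (difference 0.0377, 95% interval 0.0154 to 0.0599, limma unadjusted p = 0.0517, limma adjusted p = 0.856). It shares reads with the acceptor event and is no second observation. These were the 2 of 87 events whose libraries did not overlap, 2.3%, and both read the same junction. Among all events tested the share was 5.46%, 2.32% with MT higher and 3.15% with MT lower. An event cannot separate where a WT and an MT library have the same level, as at many cassette events of these genes. How common such ties were among all events was not tested, so no conclusion is drawn from the lower share. No event of these genes had both non-overlapping libraries and a difference above 0.1, as 1.73% of all events did. Among 642 tandem acceptors 3 bases apart in all genes, 9.19% had non-overlapping libraries, 3.43% with MT lower and 5.76% with MT higher, and 0 were called by limma.

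The other doubled acceptors of SF3B2 showed no such separation. At exon 7 the upstream AG was used at 0.922, 0.918 and 0.940 in WT and at 0.925, 0.920 and 0.933 in MT (difference −0.000667, 95% interval −0.0186 to 0.0173). All MT values lay inside the WT range. At exon 20 the levels were 0.996, 0.987 and 0.989 in WT cells and 0.994, 0.991 and 0.991 in MT, also inside the WT range. The intervals of exons 5 and 7 do not overlap each other, and the difference between the exons was not tested.

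**Figure D3:**
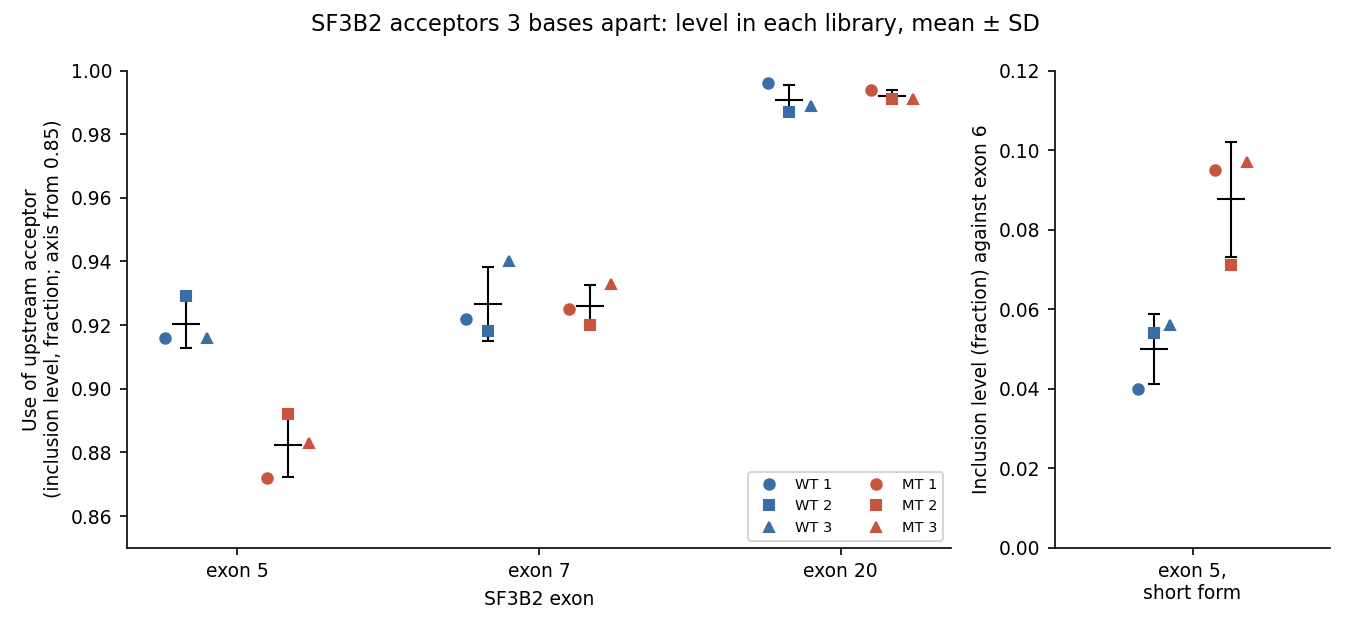
Left, use of the upstream of 2 acceptors 3 bases apart (inclusion level, fraction, on an axis that begins at 0.85) at SF3B2 exons 5, 7 and 20. Right, level of the short form of exon 5 against exon 6, on an axis from 0. Points are libraries (WT blue, MT red) and black marks are the mean and SD of 3 libraries. The 3 MT points of exon 5 lie below all WT points on the left and above them on the right, and the points of exons 7 and 20 overlap.

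The 11 cassette events of SF3B2 were at 0.985 or higher in every library. Its other MXE events, for exons 4 and 5, exons 5 and 6 with the longer exon 5, and exons 14 and 15, had mean levels of 0.691, 0.423 and 0.447 in WT cells and 0.702, 0.428 and 0.475 in MT. The pair of exons 14 and 15 had the most reads of the gene, 1384 on average, and its WT and MT ranges, 0.434 to 0.462 and 0.433 to 0.496, overlapped.

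The SF3A complex bridges SF3B and the rest of the U2 snRNP. SF3A3, its zinc-finger subunit, had 16 events. In an event with 1 of 2 inclusion junctions unannotated, exon 4, of 106 bases, had the lowest level among cassette events of MANE exons. It was included at 0.967, 0.910 and 0.910 in WT and at 0.956, 0.932 and 0.959 in MT, a difference of 0.02 (95% interval −0.0261 to 0.0661), and the MT values lay inside the WT range. Skipping of this exon is annotated, shifts the frame, and was carried by 35 reads in WT and 24 in MT.

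Exon 2 of SF3A3, which keeps the frame when skipped, was at 1.000 in the 3 WT libraries and at 0.987, 0.962 and 1.000 in MT in 1 of its 2 events (difference −0.017, 95% interval −0.0433 to 0.00926, limma adjusted p = 0.856). The skipping reads numbered 0 in WT and 5 in MT, 4 of them in MT replicate 2. In the second event of the same exon, with other neighbours, the skipping reads were 2 in WT and 0 in MT. The largest difference of the gene, 0.0427, belonged to the MXE pair of exons 11 and 10. Its level, which counts exon 10, was 0.464, 0.432 and 0.374 in WT cells and 0.424, 0.515 and 0.459 in MT. The difference was 0.018 without WT replicate 3, 0.0182 without MT replicate 2 and 0.0637 without MT replicate 1. The MXE pairs of exons 12 and 11 and of exons 3 and 2 differed by −0.00367 and 0.0163, and the event with the most reads, exon 14, had a mean of 0.998 in both genotypes.

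SF3A2, a further zinc-finger subunit of SF3A, had 7 events. Its 79-base intron between exons 6 and 7, chr19:2246803-2246881, was retained at 0.005, 0.025 and 0.016 in WT and at 0.012, 0.028 and 0.034 in MT, a difference of 0.00933 (95% interval −0.0104 to 0.0291). The ranges overlapped, and the difference was 0.00417 without WT replicate 1 and 0.0157 without MT replicate 1. The 4 cassette events stood between 0.997 and 1.000 in every library, and exon 5, with 919 mean reads, at 1.000 in all but MT replicate 2, at 0.998. A donor event set the end of exon 6 against the end of exon 7, with the 79-base intron inside the longer form. It stood between 0.993 and 1.000. Its longer form is read from the junction after exon 7, which mRNA without the intron also has, so that level does not measure retention. The largest difference, 0.015, was that of the MXE pair of exon 5 and the joined exons 6 and 7.

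SF3A1, the subunit of SF3A with a ubiquitin-like domain, had 1 event, the inclusion of exon 7 (chr22:30341692-30341885). Its level was 1.000 in all 6 libraries, at 887 mean reads, with no skipping read, and it could not be tested.

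The junction reads of each gene, summed over its events, gave a rough measure of abundance for 7 of the genes. Since a read can support more than 1 event and the genes differ in the number of events, the values compare libraries and not genes. Scaled to 1000000 junction reads in each library, SF3B1 had 327, 367 and 330 in the WT libraries and 293, 350 and 248 in MT, with overlapping ranges and a log2 change of −0.21 ± 0.20 (SE, limma adjusted p = 1.00 among 10871 genes). The change was −0.09 without MT replicate 3 and −0.33 without MT replicate 2. SF3A3 had 531, 575 and 551 in WT and 523, 518 and 521 in MT. All MT libraries were lower, as in 2.96% of all genes (5.96% had all MT libraries higher), with a log2 change of −0.08. The WT and MT ranges of SF3B2, SF3B3, SF3B6, PHF5A and SF3A2 overlapped, with log2 changes of 0.08, −0.08, −0.10, −0.01 and 0.18. No SF3A or SF3B gene was called, and 1 gene of all, MID1, was (0.0092%), named here after its value was seen.

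**Figure D4:**
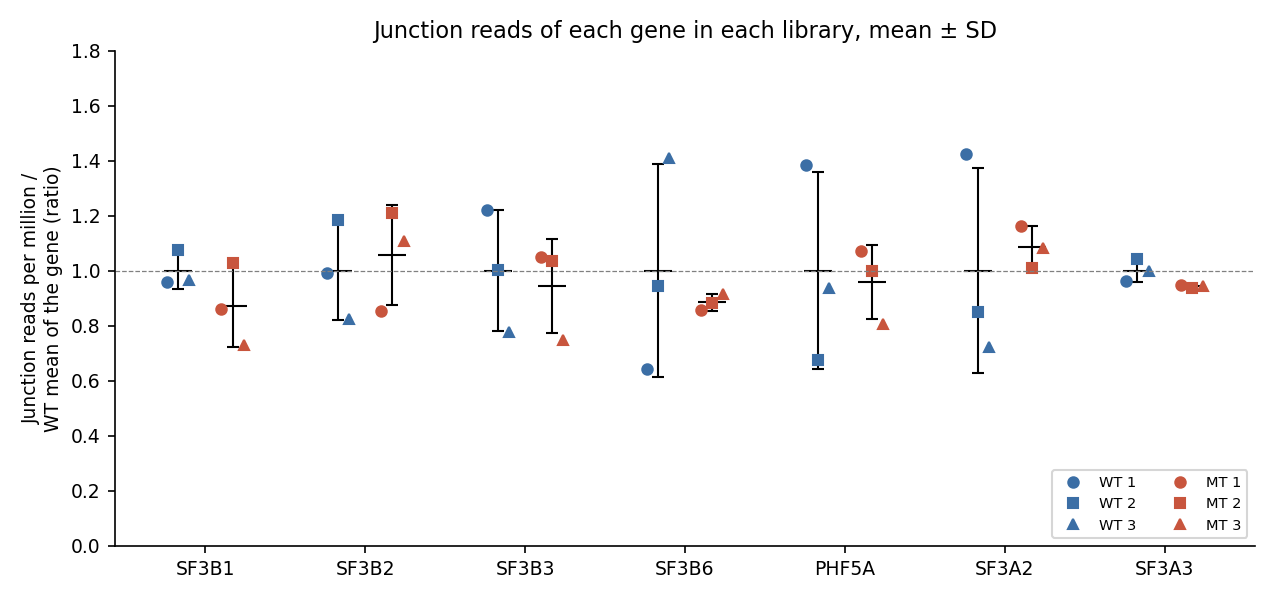
Scaled junction reads for each gene and library (WT blue, MT red), divided by the WT mean of that gene (vertical axis, ratio), with the mean and SD of 3 libraries in black and a dashed line at 1. The WT and MT points overlap for each gene except SF3A3, where the 3 MT points lie just below the WT points.

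Other proteins of the U2 snRNP and of branch point recognition were read in the same way, over a list of 23 genes, of which 22 had tested events. Of their 162 events limma called 0 in either direction, where it called 0.0311% of all events. At an unadjusted p under 0.05, 12 of the 162 passed by limma, against 4.47% of all events. Libraries did not overlap in 11 (6.79%, against 5.46% of all events). The median absolute difference was 0.004, against 0.0137 over all events, and 6 events exceeded 0.1, against 5.8% of all events. The quasi-binomial test called 2 of 128, against 0.0373% of all events. Both were of SUGP1, a G-patch protein that associates with SF3B1. In these an acceptor 65 or 196 bases upstream was used less in MT.

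The SUGP1 form with 65 more bases, chr19:19303848-19303912, had levels of 0.136, 0.156 and 0.269 in WT cells and 0.039, 0.039 and 0.026 in MT. All MT libraries were lower, with a difference of −0.152, and the adjusted p was 0.0338 in the quasi-binomial test with limma's moderation and 0.369 by limma on the levels. The second event shares the reads of the shorter form. Among the non-overlapping events the largest difference was in SF1, the protein that binds the branch point before the U2 snRNP arrives. An exon of 205 bases, chr11:64765951-64766155, was included at 1.000, 0.846 and 0.600 in WT cells and 0.481, 0.379 and 0.273 in MT, with 19.7 mean reads and a limma adjusted p of 0.513.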

How the data were processed

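RNA-Seq libraries of 3 WT and 3 MT HEK293T samples were used, grouped by the genotype in their labels. Methods state stranded paired-end libraries and the rMATS model, and the labels name STAR and GRCh38. For every event and library, the authors' deposited table holds a fraction, the inclusion level, besides lists of junction counts. The authors' columns of differences, p-values and FDR were not used. Its lists run to 6 MT entries, and the 3 MT columns equal entries 1, 2 and 6. It is not settled that these are the study's 3 MT samples. The authors' mean junction reads, given for each group as deposited counts, cover all listed values. In the inclusion counts of MT the last entry of 19331 lists was lost and was restored from the authors' mean, and 75 of the 97 events had counts of all 6 libraries, with 0 of 110537 such events off the deposited level by more than 0.001.

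The square root of each level was transformed by the arcsine and compared with limma 3.58.1 in R 4.3.3, with a variance trend on log2 mean reads and Benjamini-Hochberg adjustment over all 83581 events that had a level in all libraries, at least 10 mean reads and more than 1 level. Events were called at an adjusted p under 0.05 and an absolute difference above 0.1. Intervals of differences (95%) came from the untransformed level. Junction counts were tested by a quasi-binomial model with limma's moderation of the dispersion. Junction reads per gene were compared by limma as log2 shares of the library total with a prior count of 0.5, for genes with a mean of at least 10. Models were also run on simulated data, with changes in level larger than those of the SF3A and SF3B events. The outcome is not given here, and the power to detect differences as small as those was not tested. Exons and transcripts are those of GENCODE 44 with its MANE transcripts.

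Named events were those called, those with non-overlapping libraries and a difference above 0.1, those with the most reads or the largest difference of each gene, and those with a minor form of at least 0.1 and at least 100 mean reads. This rule gave 25 of the 97, and 10 others (doubled acceptors of exons 7 and 20 and the short exon 5 of SF3B2, minor forms of SF3B1, SF3B3 and SF3A2, and exons of SF3A3 and SF3B1) were named after their values were seen, as were exon 8 of SF3B3, the second event of SF3A3 exon 2 and the SUGP1 events. Genes and lists were chosen with earlier results of these data known. DRIP-seq peaks of the series were not used here. The sequence at the PHF5A donors is not reported here.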

Additional observations from a re-analysis of the deposited data

How the results depend on the processing

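No SF3A or SF3B event was called under any alternative run. The 34 named events kept an adjusted p of 0.403 to 1 in all 470 refits, by limma or the quasi-binomial test. Calls over all events moved with the fit, from 26 to 0 on the logit, 0 without a variance trend, 0 on the untransformed level and 12 with a replicate block, and to 3 to 13 when a library was left out, and the cause was not tested. Calls of U2 snRNP and U2-associated events rose from 0 to 2 with the quasi-binomial test of junction counts. SF3A and SF3B events with non-overlapping libraries numbered 2, and 4 to 13 when 1 library was left out, a step that by its construction eases separation. At SF3B2 exon 5 the difference stayed between −0.0428 and −0.0328.

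Leaving out single libraries turned the sign of 16 named differences, none of them called. Their ranges were −0.005 to 0.006 (SF3B2 exon 7 acceptor), −0.0005 to 0.004 (SF3B2 exon 20 acceptor), −0.082 to 0.015 (SF3B1 retained stretch), −0.003 to 0.0055 (SF3B1 56-base exon), −0.00133 to 0.00967 (SF3B3 154-base exon) and −0.0125 to 0.01 (SF3B6 exon 2). The MXE pairs ranged from −0.0247 to 0.00783 in SF3B1, from −0.00717 to 0.0238 and −0.011 to 0.027 in SF3B2, and from −0.0483 to 0.0352 and −0.00717 to 0.0583 in SF3A3. In SF3B3 they ranged from −0.0387 to 0.0103, −0.0255 to 0.0285, −0.0972 to 0.0158, −0.0285 to 0.000167 and −0.02 to 0.0263. Differences that kept their sign but moved by over 1.5 times ranged from 0.0105 to 0.039 (SF3A3 exon 4), −0.0255 to −0.0065 (SF3A3 exon 2), −0.00383 to −0.00133 (SF3B3 29-base exon), 0.00533 to 0.0328 (SF3A2 MXE pair), 0.0173 to 0.0488 (SF3B2 exons 14 and 15), −0.0402 to −0.00217 (SF3B3 exons 5 and 6) and 0.0035 to 0.067 (SF3B3 exons 16 and 18), besides those given beside their values. Log2 changes of junction reads ranged from −0.26 to 0.26 (PHF5A), −0.024 to 0.46 (SF3A2), −0.050 to 0.23 (SF3B2), −0.24 to 0.083 (SF3B3), −0.38 to 0.18 (SF3B6) and −0.11 to −0.054 (SF3A3). Median-ratio scaling moved the median log2 change of all genes from 0.05 to −0.0023.

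WT and MT libraries share replicate numbers. Deviations of same-numbered libraries correlated at 0.0997, 0.0974 and 0.0271 across events, each the highest for its library. Those of libraries with different numbers correlated at −0.103 to 0.0119. Whether same-numbered libraries were prepared together is not stated and was not tested. The replicate block took the calls over all events from 26 to 12 and left those of the SF3A and SF3B genes at 0. Differences are least precise at 6 of the MXE events and at the SF3B1 retained stretch, where intervals reach beyond 0.1.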
